A study of Mus musculus with 39 samples.

Results

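The acute-phase genes described here were 10: serum amyloid A genes Saa1, Saa2, Saa3 and Saa4, lipocalin 2 (Lcn2), haptoglobin (Hp), orosomucoids Orm1 and Orm2, hepcidin (Hamp) and serum amyloid P component (Apcs). They were chosen by name, with earlier results for Saa2 and Lcn2 in the livers of these same mice in view, so that the liver levels of all 10 are given as a description with no test. The other gene lists used below were also chosen with earlier results of these data known. The 10 genes were all present among the 24537 genes counted in kidney, liver and lung and among the 52508 genes counted in skin. Counts came from bulk sequencing of transcript 3′ ends in 39 libraries.

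All mice were male, on a C57BL/6 background and lacked perforin (Prf1-/-), the pore-forming protein of cytotoxic lymphocytes, in every cell; the libraries used here include no perforin-competent mice. Young mice were 3 months old and untreated. Old mice were 20 months old and had received, from 18 months of age, intraperitoneal injections on 2 consecutive days in each of 2 months, either of a DMSO-based vehicle or of ABT-737 at 25 mg/kg. ABT-737 is a small-molecule inhibitor of the BCL-2 family proteins that hold apoptosis in check, and the study used it to remove senescent cells. Each tissue had 4 young libraries (3 in skin), 3 vehicle libraries and 3 ABT-737 libraries. The young mice had no injections, so age and injection cannot be told apart in the comparison of vehicle with young mice. In bulk tissue, fewer cells of a type and less RNA per cell cannot be told apart.

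Total counts per library were between 1493411 and 3842808 in skin, 1431814 and 3513311 in kidney, 1046508 and 2600092 in lung, and 223957 and 891116 in liver. The shallowest was the liver of vehicle replicate 3. Levels are given as CPM, a gene's count scaled to the normalised library total within a tissue so that libraries of unequal depth can be compared, and differences as log2 fold changes ± SE from edgeR fitted across all genes of that tissue. A gene was called changed where the p-value adjusted over all genes tested in the tissue was under 0.05. Each tissue carried its own markers: Slc34a1, a phosphate transporter of the proximal tubule, led the kidney list in all kidney libraries, albumin (Alb) led the hepatocyte list in all liver libraries but vehicle replicate 3 (led by Ahsg), the club cell and surfactant genes Scgb1a1 or Sftpc led in lung, and keratins Krt5, Krt10 or Krt14 led in skin.

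The acute-phase response is the change in plasma proteins that follows infection or injury. Macrophages and other cells release interleukin-6 and interleukin-1, which act on hepatocytes through STAT3, C/EBP factors and NF-κB, and the liver then secretes large amounts of serum amyloid A, haptoglobin and orosomucoid while it makes less transthyretin and other carriers. In mice Saa1 and Saa2 are the liver's inducible forms, Saa3 is made by macrophages, adipocytes and epithelia as well, and Saa4 is constitutive. Lipocalin 2 binds bacterial siderophores, haptoglobin binds free haemoglobin, and hepcidin closes the iron exporter ferroportin.

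The 4 serum amyloid A genes lie together on chromosome 7 of mm10: Saa3 at chr7:46711998-46715676 on the minus strand, Saa4 at chr7:46727992-46732603 on the minus strand, Saa1 at chr7:46740499-46742980 on the minus strand and Saa2 at chr7:46751833-46754314 on the plus strand. Hamp is on the same chromosome at chr7:30942369-30944029 (minus). Lcn2 is at chr2:32384637-32387739 (minus), Hp at chr8:109575128-109579172 (minus), Orm1 at chr4:63344556-63348163 (plus), Orm2 at chr4:63362449-63365877 (plus) and Apcs at chr1:172893961-172895054 (minus). RefSeq promoter sequence of GRCm38.p6, the build that mm10 names, was matched for 8 of the 10 genes. Those of 5 genes are shown because the results below turn on them: Saa1 and Saa2, near-identical in sequence, Saa3 and Lcn2, each higher in vehicle than in young mice in several tissues, and Hamp, which overlapped between groups in liver. Each run is the 250 bases before the start, 5′ to 3′ along the gene, for Saa1 chr7:46742981-46743230 (minus), Saa2 chr7:46751583-46751832 (plus), Saa3 chr7:46715677-46715926 (minus), Lcn2 chr2:32387740-32387989 (minus) and Hamp chr7:30944030-30944279 (minus). Capitals mark matches to the C/EBP motif TTNNGNAA or the STAT motif TTCNNNGAA on either strand.
Saa1: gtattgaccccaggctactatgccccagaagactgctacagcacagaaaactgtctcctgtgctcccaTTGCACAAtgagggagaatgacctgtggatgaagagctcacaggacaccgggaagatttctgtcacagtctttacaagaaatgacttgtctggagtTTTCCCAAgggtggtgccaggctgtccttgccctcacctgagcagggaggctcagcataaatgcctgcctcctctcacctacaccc
Saa2: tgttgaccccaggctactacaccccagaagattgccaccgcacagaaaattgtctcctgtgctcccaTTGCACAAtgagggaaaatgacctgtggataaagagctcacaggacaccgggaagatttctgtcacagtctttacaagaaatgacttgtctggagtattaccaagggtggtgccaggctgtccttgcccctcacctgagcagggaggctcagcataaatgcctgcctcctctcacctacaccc
Saa3: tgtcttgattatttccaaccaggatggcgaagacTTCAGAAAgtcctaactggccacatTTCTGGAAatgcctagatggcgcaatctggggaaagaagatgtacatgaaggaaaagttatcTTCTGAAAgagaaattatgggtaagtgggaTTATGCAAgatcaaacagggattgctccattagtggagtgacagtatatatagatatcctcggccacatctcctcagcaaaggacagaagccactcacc
Lcn2: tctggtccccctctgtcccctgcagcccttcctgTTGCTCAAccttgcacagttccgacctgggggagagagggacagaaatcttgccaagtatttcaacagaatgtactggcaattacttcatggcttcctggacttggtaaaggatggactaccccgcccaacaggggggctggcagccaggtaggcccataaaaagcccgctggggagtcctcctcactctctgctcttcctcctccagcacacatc
Hamp: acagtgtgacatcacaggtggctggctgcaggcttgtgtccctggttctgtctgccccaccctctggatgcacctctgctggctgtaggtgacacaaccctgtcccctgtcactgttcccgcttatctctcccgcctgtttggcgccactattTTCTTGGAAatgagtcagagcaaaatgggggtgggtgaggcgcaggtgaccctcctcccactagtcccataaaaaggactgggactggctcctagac

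The Saa1 and Saa2 promoters were identical at 238 of 251 aligned positions (94.8%), against 50.2% for Saa1 and Saa3. Saa1 and Saa2 shared the C/EBP match TTGCACAA at nearly the same distance from the start, and Saa1 held a second one. Saa3 held 4 C/EBP matches and Lcn2 held 1, whereas Hamp held none and had a STAT match instead. Of the other 3 promoters matched, Saa4 and Orm2 held 2 C/EBP matches each, and Apcs held 1 STAT match. Among 32851 promoters of this length, 36.8% held the C/EBP motif, 7.02% the STAT motif and 3.9% the NF-κB consensus, which matched none of the 8. These matches are letters in a window and carry no measurement of binding.

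In liver, most of the 10 genes were higher in old vehicle-treated than in young mice and lower in ABT-737 than in vehicle mice. Among the 9 genes fitted, the largest differences were in Saa2, Saa1 and Lcn2, the levels of Saa3, Hp, Orm1 and Orm2 also differed, and Saa4 and Hamp did not follow the pattern on ABT-737. Over all genes, 22.6% of the 5583 liver genes tested were called between vehicle and young and 3.85% between ABT-737 and vehicle. With 1 library left out, the share between ABT-737 and vehicle ranged from 0.73% (ABT-737 replicate 4) to 8.78% (vehicle replicate 3). Since the genes were chosen on this contrast, no count of them is set against these shares. Both comparisons use the same 3 vehicle libraries.

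**Figure D1:**
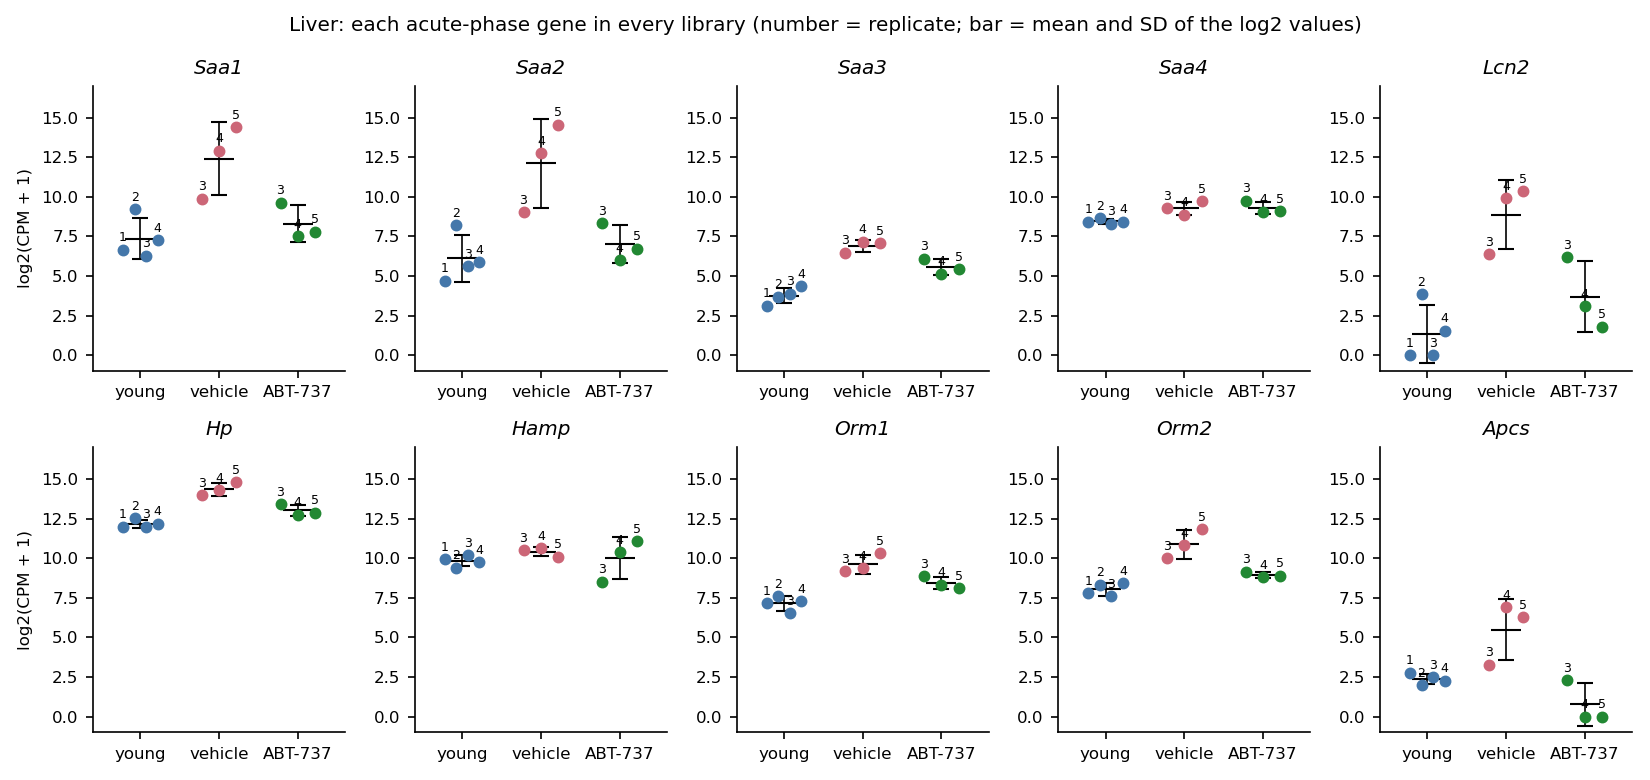
Level of each of the 10 acute-phase genes in every liver library, as log2(CPM + 1), for young, vehicle and ABT-737 mice; points carry replicate numbers, and bars show the mean and SD of the log2 values. Saa1, Saa2 and Lcn2 were lowest in vehicle replicate 3 among the vehicle mice, while Hp was at 16309 CPM or more in all 3 vehicle mice and at 11001 CPM or less in the others.

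Saa1 and Saa2 encode the inducible apolipoproteins that displace other proteins from high-density lipoprotein in inflammation. Saa2 stood at 515, 6992 and 23932 CPM in vehicle replicates 3, 4 and 5. It stood at 321.0, 62.6 and 104 CPM in ABT-737 replicates 3, 4 and 5. In the 4 young livers it was at 25.2, 298, 47.6 and 57.5 CPM. The vehicle libraries lay above all others, but the lowest vehicle library and the highest ABT-737 library were close, while the highest vehicle library was far above the lowest. The fitted log2 fold change was 6.59 ± 1.05 for vehicle over young and -6.06 ± 1.17 for ABT-737 over vehicle. Saa1 had the same order of libraries among the vehicle mice and among the ABT-737 mice: 947, 7766 and 21559 CPM in vehicle mice, 793, 182 and 220 CPM in ABT-737 mice, and 101, 602, 76.8 and 152 CPM in young mice. Its log2 fold changes were 5.43 ± 0.90 and -4.69 ± 0.99. Vehicle replicate 3 and ABT-737 replicate 3 were thus nearly level for Saa1, and young replicate 2 lay above 2 of the 3 ABT-737 livers.

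The ratio of Saa1 to Saa2 counts was not constant. It was 1.84, 1.11 and 0.901 in the vehicle livers, lowest where the total of both was highest, and 2.47, 2.91 and 2.12 in the ABT-737 livers. In the 3 young livers with at least 20 counts of each it was 2.02, 1.61 and 2.63. The transcripts have 601 and 604 bases and near-identical sequence, and reads may have been split between them, so the ratio is uncertain. Saa1 and Saa2 together took 3.97% of all counts in vehicle replicate 5, 1.49% in replicate 4 and 0.150% in replicate 3.

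Saa3, the serum amyloid A of macrophages and epithelia, was far lower in count but more even among mice. It was at 87.3, 143 and 135 CPM in vehicle livers, 67.4, 34.1 and 42.1 CPM in ABT-737 livers and 7.74, 11.9, 13.8 and 19.2 CPM in young livers. The 3 groups did not overlap, with ABT-737 between the other 2. The log2 fold change was 3.24 ± 0.31 for vehicle over young, -1.46 ± 0.31 for ABT-737 over vehicle and 1.77 for ABT-737 over young. Saa4, the constitutive form carried on lipoproteins, was at 640 ± 184 CPM (SD, n = 3) in vehicle, 650 ± 189 CPM (SD, n = 3) in ABT-737 and 349 ± 35.4 CPM (SD, n = 4) in young livers. Its log2 fold change was 0.88 ± 0.25 for vehicle over young and 0.02 ± 0.27 for ABT-737 over vehicle, so that both old groups lay above the young one and overlapped each other.

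Lcn2 went from nearly undetected to high counts. It stood at 82.9, 961 and 1298 CPM in vehicle replicates 3, 4 and 5, at 71.3, 7.59 and 2.48 CPM in ABT-737 replicates 3, 4 and 5, and at 0, 13.4, 0 and 1.92 CPM in young replicates 1 to 4. Vehicle and ABT-737 groups did not overlap, but vehicle replicate 3 and ABT-737 replicate 3 were close. The log2 fold change was 7.49 ± 0.97 for vehicle over young and -5.19 ± 0.95 for ABT-737 over vehicle. Hp was abundant in every liver, and its 3 groups did not overlap: 16309, 20467 and 28732 CPM in vehicle mice, 11001, 6948 and 7523 CPM in ABT-737 mice, and 4078, 5948, 4093 and 4690 CPM in young mice. Its means were 21836 ± 6324 CPM (SD, n = 3) in vehicle, 8491 ± 2193 CPM (SD, n = 3) in ABT-737 and 4702 ± 878 CPM (SD, n = 4) in young livers. The log2 fold changes of 2.22 ± 0.28 and -1.36 ± 0.30 left ABT-737 livers 0.85 above young ones.

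Orm1 and Orm2 encode orosomucoids, plasma glycoproteins that bind drugs and steroids. Orm2 was at 1034, 1828 and 3673 CPM in vehicle, 567, 446 and 475 CPM in ABT-737 and 221, 323, 195 and 340 CPM in young livers. Orm1 was at 580, 665 and 1269 CPM in vehicle, 472, 321 and 277 CPM in ABT-737 and 143, 197, 92.2 and 153 CPM in young livers. For both genes the 3 groups were apart, in the order vehicle, ABT-737, young. The log2 fold change of ABT-737 over vehicle was -2.14 ± 0.38 for Orm2 and -1.25 ± 0.33 for Orm1. The ratio of Orm2 to Orm1 counts was 1.78, 2.75 and 2.89 in vehicle, 1.20, 1.39 and 1.71 in ABT-737 and between 1.54 and 2.21 in young livers. With transcripts of 771 and 766 bases and close sequences, their split is uncertain in the same way as that of Saa1 and Saa2.

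Apcs, the pentraxin found in all amyloid deposits and the main acute-phase pentraxin of the mouse, did not pass the filter on low counts. It was at 8.73, 119 and 77.1 CPM in vehicle, 3.96, 0 and 0 CPM in ABT-737 and 5.81, 2.98, 4.61 and 3.84 CPM in young livers. The ABT-737 livers held 1 count of Apcs in all, which gave a ratio of vehicle to ABT-737 of 104 with a 95% counting interval of 18.4 to 4142. That interval pools the mice, covers counting error only and leaves out differences between mice. Vehicle replicates 3, 4 and 5 held 2, 102 and 60 counts, and replicate 3 lay below its floor of 3 counts (13.1 CPM). Hamp, the iron hormone, was the exception in liver. It was at 1458, 1601 and 1106 CPM in vehicle, 365, 1349 and 2139 CPM in ABT-737 and 997, 674, 1187 and 861 CPM in young livers, so that the groups overlapped in every pairing. Its log2 fold change was 0.58 ± 0.40 for vehicle over young and -0.11 ± 0.43 for ABT-737 over vehicle.

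The 10 genes together took 2.21% (exact Clopper-Pearson 95% interval 2.15 to 2.28), 4.13% (4.09 to 4.17) and 7.22% (7.16 to 7.27) of all counts in the vehicle livers. They took 1.37%, 0.930% and 1.07% in ABT-737 livers, and 0.571%, 0.845%, 0.597% and 0.654% in young livers. Intervals cover counting error only. ABT-737 replicate 3 had the highest level of the 3 ABT-737 livers for every one of the 10 genes except Hamp, for which it had the lowest. Vehicle replicate 3 had the lowest of the 3 vehicle livers for 8 of the 10 genes, all but Hamp and Saa4, and was also the shallowest library. Its albumin was at 8907 CPM, against 33482 and 31521 CPM in vehicle replicates 4 and 5. The other 7 hepatocyte markers summed to 35043 CPM in it, against 27597 and 38125 CPM in those 2.

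The acute-phase genes outside the 10, on which the choice did not rest directly, were tested. Their list was also chosen with earlier results of these data known. The tests use the same livers, so they are not independent of that choice. Of 22 other positive acute-phase genes, 20 passed the filter in liver; 12 rose and 1 fell in vehicle over young mice, and 5 fell and none rose in ABT-737 over vehicle mice. Their median log2 fold change was 1.03 and -0.77, against 0.02 and -0.03 over all genes. The metal-binding metallothioneins changed most: Mt2 rose by 7.84 ± 0.83 (adjusted p = 1.69e-05) and Mt1 by 5.65 ± 0.79 (adjusted p = 1.53e-04) in vehicle over young mice. Mt2 ranged from 367 to 5535 CPM in vehicle livers and from 7.67 to 13.8 CPM in young livers. By adjusted p, the next 3 were Lbp, which binds bacterial lipopolysaccharide (1.60, adjusted p = 1.53e-04), Orm3, the third orosomucoid (4.38, adjusted p = 4.10e-04), and Lrg1, a leucine-rich glycoprotein (1.90, adjusted p = 0.00218). The single gene that fell was Hamp2, the close relative of Hamp (-1.31, adjusted p = 0.0298), named here after its value was seen.

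On ABT-737, the 5 that fell were Mt2 (-3.22, adjusted p = 0.0173), Steap4, a metalloreductase (-1.52, adjusted p = 0.0208), Orm3 (-2.94, adjusted p = 0.0295), Mt1 (-3.22, adjusted p = 0.0318) and Lbp (-0.97, adjusted p = 0.0356). This count of 5 depended on single libraries: edgeR called 11 without vehicle replicate 3, 1 without vehicle replicate 4, 3 without vehicle replicate 5, 3 without ABT-737 replicate 3, and none without ABT-737 replicate 4 or without ABT-737 replicate 5. Of 9 negative acute-phase genes, all 9 tested, Serpina6, the corticosteroid carrier, fell in vehicle over young mice (-1.10, adjusted p = 0.00300), and none was called between ABT-737 and vehicle, 2 being higher at an unadjusted p under 0.05. Albumin and transthyretin are in this list and were not called.

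Of 28 genes of acute-phase signalling, 14 were tested in liver. In vehicle over young mice 7 rose and 2 fell. Those that rose included Stat3 (1.59, adjusted p = 9.04e-04), the interleukin-6 receptor chains Il6st (1.08, adjusted p = 9.53e-04) and Il6ra (1.40, adjusted p = 0.00131), Cebpd (1.43, adjusted p = 0.00752) and the feedback inhibitor Socs3 (1.13, adjusted p = 0.0497). The 2 that fell were the receptor chains Il1rap (-2.22, adjusted p = 2.59e-04) and Lifr (-1.75, adjusted p = 0.00129). Cebpb had a log2 fold change of 0.66 (adjusted p = 0.0592). Between ABT-737 and vehicle Socs3 fell by 2.0 (adjusted p = 0.0388) and was the 1 gene called, with Stat3 at -0.79 (adjusted p = 0.180), Cebpd at -0.62 (adjusted p = 0.452) and Cebpb at -0.42 (adjusted p = 0.481). Socs3 was at 26.2, 111 and 60.4 CPM in vehicle livers, so its order among the vehicle mice differed from that of Saa2. The cytokine transcripts themselves were scarce: Il6 had 0 counts in all 10 livers, Il1b had 9 counts in each of vehicle replicates 4 and 5 and none in replicate 3, and Tnf had at most 4.

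Among 14 receptors and partners of the 10 genes, 6 were tested in liver. Slc40a1, the ferroportin that hepcidin closes, fell in vehicle over young mice (-1.93, adjusted p = 0.00751). Smad6, an inhibitor in the BMP pathway that controls Hamp, rose by 1.36 (adjusted p = 0.0220) and then was lower on ABT-737 (-2.95, adjusted p = 0.0101), with 0 to 4.95 CPM against 18.7 to 23.1 CPM in vehicle livers.

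Markers of other cells moved with these groups. The 8 macrophage markers summed to 724, 759 and 950 CPM in vehicle livers, 182, 169 and 257 CPM in ABT-737 livers and 194, 261, 255 and 255 CPM in young livers, with the Kupffer cell gene Clec4f most abundant. Of the 5 tested, all 5 rose in vehicle over young mice, and 4 (Clec4f, Csf1r, Cd68 and Lyz2) fell on ABT-737. The vehicle livers were close in this sum while Saa2 spread widely among them. The 12 neutrophil markers summed to 17.5, 108 and 41.1 CPM in vehicle livers and to at most 5.96 CPM in the other 7; none of the 12 passed the filter. The T cell markers Cd3d, Cd3e and Cd8a, which did not pass it either, summed to 26.2, 29.3 and 32.1 CPM in vehicle livers and to at most 3.07 CPM in the other 7. The 8 hepatocyte markers summed to 43950, 61079 and 69647 CPM in vehicle livers, below the 72858 to 93416 CPM of the other 7, and 2 of the 8, Apob and Apoh, fell in vehicle over young mice. Of the 6 adipocyte markers, 1 was tested in liver, Cidec. By edgeR it rose in vehicle over young mice (2.17, adjusted p = 0.0443) and was higher again in ABT-737 over vehicle mice (2.24, adjusted p = 0.0183). The other 5 adipocyte markers did not follow Cidec on ABT-737. They summed to 8.73, 53.8 and 8.99 CPM in vehicle, 11.9, 17.1 and 0 CPM in ABT-737 and at most 1.92 CPM in young livers. The part of cell composition in the levels of the acute-phase genes was not tested.

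**Figure D2:**
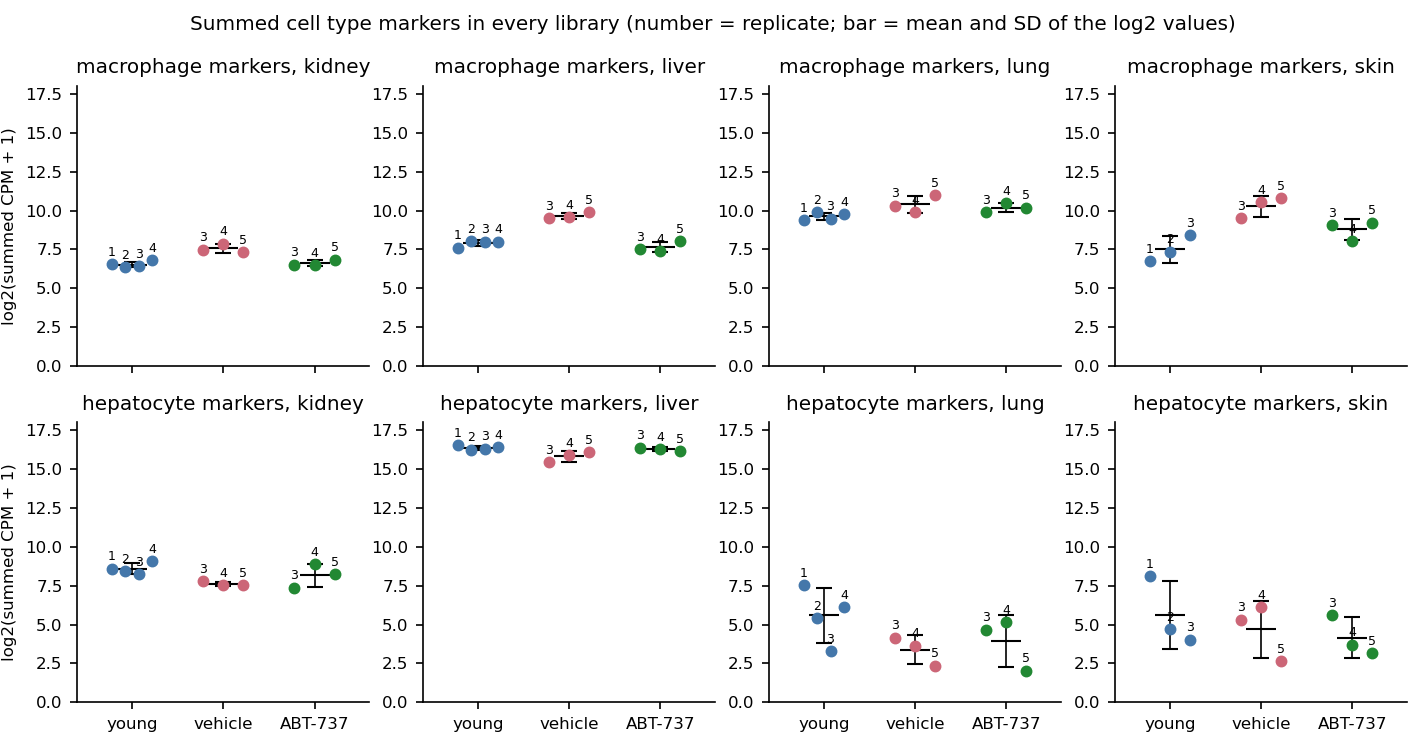
Log2(summed CPM + 1) of the macrophage markers and the hepatocyte markers in every library of the 4 tissues, by group, with replicate numbers at the points and bars for the mean and SD of the log2 values. In liver the 3 vehicle mice lie highest for macrophage markers (724 to 950 CPM) and lowest for hepatocyte markers (43950 to 69647 CPM).

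In kidney, Lcn2 and Hp were higher in vehicle than in young mice and were not called between ABT-737 and vehicle, and Saa3 was seen mainly in vehicle mice. Of the 10 genes, 2 passed the filter, Lcn2 and Hp, and both were called in vehicle over young mice, where 13.3% of 11123 genes were. Neither was called between ABT-737 and vehicle, where 1.35% of genes were, although both had an unadjusted p under 0.05 in edgeR. With 1 library left out, that share of all genes ranged from 0.497% (ABT-737 replicate 4) to 4.15% (vehicle replicate 3). Lcn2, a widely used transcript of tubular injury, was at 19.2, 41.0 and 22.1 CPM in vehicle kidneys, 4.11, 9.40 and 14.5 CPM in ABT-737 kidneys and 3.00, 1.93, 4.68 and 7.85 CPM in young kidneys. Every vehicle kidney lay above all others, and ABT-737 overlapped young. All 7 kidney markers were tested. In vehicle over young mice edgeR called Havcr1 higher (2.44, adjusted p = 0.00188) and Lrp2 lower (-0.84, adjusted p = 0.00280). Havcr1 was not called between ABT-737 and vehicle. Lcn2 rose by 2.67 ± 0.42 in vehicle over young mice (adjusted p = 4.90e-04), called without any 1 of the 10 libraries (adjusted p = 2.29e-04 to 0.00316). The ABT-737 to vehicle difference was -1.51 ± 0.43 (adjusted p = 0.102), with no overlap in 3 against 3 kidneys. It was called in DESeq2 (adjusted p = 0.0444), without vehicle replicate 3 (adjusted p = 0.0436) and with all genes that had at least 1 count in edgeR (adjusted p = 0.00979). Of the 10 edgeR fits that each left out 1 library, that was the 1 with a call, and the adjusted p reached 0.385.

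Hp was at 9.03, 47.2 and 30.5 CPM in vehicle kidneys, 9.76, 1.48 and 3.12 CPM in ABT-737 kidneys and 7.29, 16.0, 4.68 and 8.31 CPM in young kidneys. It rose by 1.57 ± 0.49 in vehicle over young mice (adjusted p = 0.0453), but the groups overlapped through vehicle replicate 3. The call was lost without young replicate 1, 3 or 4 or vehicle replicate 4 or 5 (adjusted p = 0.0928 to 0.249) and in DESeq2 (adjusted p = 0.132). The difference of ABT-737 from vehicle was -2.53 ± 0.63 (adjusted p = 0.0626). EdgeR called it without vehicle replicate 3 (adjusted p = 0.00537), without ABT-737 replicate 3 (adjusted p = 0.0454) and with all genes of at least 1 count (adjusted p = 6.66e-04). Those were the 2 calls among the 10 edgeR fits that each left out 1 library, where the adjusted p reached 0.252. The 6 adipocyte markers, led by Cfd, were, like Hp, highest in vehicle replicates 4 and 5 and lowest in ABT-737 replicate 4 among the old kidneys: they summed to 69.1, 216 and 139 CPM in vehicle, 82.7, 19.8 and 85.7 CPM in ABT-737 and 90.1, 163, 87.5 and 144 CPM in young kidneys. Of the 4 tested, none was called by edgeR and all 4 were lower on ABT-737 at an unadjusted p under 0.05. Their part in the level of Hp was not tested.

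Saa3 had 2, 49 and 22 counts in vehicle kidneys, 2, 0 and 5 in ABT-737 kidneys and 0, 1, 0 and 0 in young kidneys. Most counts of the transcript were thus in vehicle replicates 4 and 5. The ratio of vehicle to young was 137, with a 95% counting interval of 23.9 to 5495. That interval pools the mice and leaves out differences between them. With all genes of at least 1 count tested, edgeR gave 6.59 ± 0.91 for vehicle over young (adjusted p = 8.94e-07) and -3.44 ± 0.74 for ABT-737 over vehicle (adjusted p = 0.00487). Saa1 and Saa2 had 9 and 8 counts in vehicle replicate 4 and at most 2 in any other kidney, and Hamp had none in any.

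Of the 22 other positive acute-phase genes, 12 were tested in kidney; 10 rose in vehicle over young mice and 3 fell on ABT-737. Complement C4b rose by 3.44 (adjusted p = 5.25e-06) and C3 by 2.92 (adjusted p = 6.62e-05), and the fibrinogen chains Fga (1.86, adjusted p = 9.30e-04), Fgg (1.90, adjusted p = 0.00537) and Fgb (2.33, adjusted p = 0.00707) rose as well. The 3 that fell on ABT-737 were C4b (-1.65, adjusted p = 0.0147), C3 (-1.84, adjusted p = 0.0219) and ceruloplasmin, Cp (-1.52, adjusted p = 0.0361). C4b was at 128 ± 55.0 CPM (SD, n = 3) in vehicle, 40.4 ± 14.8 CPM (SD, n = 3) in ABT-737 and 11.8 ± 4.41 CPM (SD, n = 4) in young kidneys. Of 9 negative acute-phase genes, 5 were tested: Ttr fell (-1.65, adjusted p = 0.00547) and Trf rose (1.13, adjusted p = 0.0111) in vehicle over young mice, and none was called on ABT-737.

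Of the signalling genes, 19 were tested in kidney, and 5 rose and 1 fell in vehicle over young mice. Il1b, the cytokine precursor, rose by 2.54 (adjusted p = 0.00173) and Socs3 by 1.97 (adjusted p = 0.00190), with the adaptor Myd88 (0.71, adjusted p = 0.0135), the tumour necrosis factor receptor Tnfrsf1a (0.54, adjusted p = 0.0154) and the oncostatin M receptor Osmr (1.48, adjusted p = 0.0250). The 1 that fell was Lifr (-0.65, adjusted p = 0.0294), named after its value was seen. Stat3 (0.62, adjusted p = 0.102), Cebpb (0.71, adjusted p = 0.0917) and Cebpd (0.30, adjusted p = 0.604) were not called, Il6 had no count in any kidney, and Tnf, with at most 6, was not tested. None of the 19 was called on ABT-737 by edgeR, where 1 was higher and 5 were lower at an unadjusted p under 0.05. Of the 10 receptors and partners tested in kidney, 2 rose and 4 fell in vehicle over young mice. Those that rose were Tlr2, a receptor of serum amyloid A (2.48, adjusted p = 6.65e-04), and Bmp6, a ligand that induces hepcidin (0.80, adjusted p = 8.75e-04). Those that fell were Lrp2, the megalin that takes up lipocalin 2 in the tubule (-0.84, adjusted p = 0.00280), the scavenger receptor Cd36 (-1.20, adjusted p = 0.0140), the ferroportin Slc40a1 (-1.08, adjusted p = 0.0140) and Id1, a target of BMP signalling (-0.66, adjusted p = 0.0355), the last named after its value was seen. On ABT-737 Lrp2 was the 1 called, and was higher (0.74, adjusted p = 0.0439). Macrophage markers summed to 179, 235 and 158 CPM in vehicle, 90.9, 89.6 and 114 CPM in ABT-737 and 91.8, 80.8, 86.1 and 110 CPM in young kidneys, led by Csf1r, and 5 of 5 tested rose in vehicle over young mice. On ABT-737 all 5 were lower at an unadjusted p under 0.05, and 1, Lyz2, was called (-1.20, adjusted p = 0.0326). Neutrophil markers summed to 6.28, 21.2 and 10.3 CPM in vehicle kidneys, and at most 4.15 CPM elsewhere. The T cell markers Cd3d, Cd3e and Cd8a summed to 22.8, 31.5 and 27.7 CPM in vehicle, 7.19, 2.97 and 9.86 CPM in ABT-737 and 3.31 to 6.92 CPM in young kidneys. All 3 rose in vehicle over young mice, and Cd3d (-3.01, adjusted p = 0.00706) and Cd8a (-2.0, adjusted p = 0.0192) fell on ABT-737. Hepatocyte markers were led by Ttr and summed to 185 to 218 CPM in vehicle and 302 to 543 CPM in young kidneys. Without Ttr, which fell (-1.65, adjusted p = 0.00547), the other 7 summed to 111.5, 85.5 and 74.2 CPM in vehicle, 82.2, 103 and 102 CPM in ABT-737 and 45.03, 67.5, 68.5 and 70.6 CPM in young kidneys. Vehicle kidneys were thus above young ones in this sum, and Apoh, of the 5 hepatocyte markers tested, rose (1.01, adjusted p = 0.0424). The part of any of these cells in the level of Lcn2 or Saa3 was not tested.

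**Figure D3:**
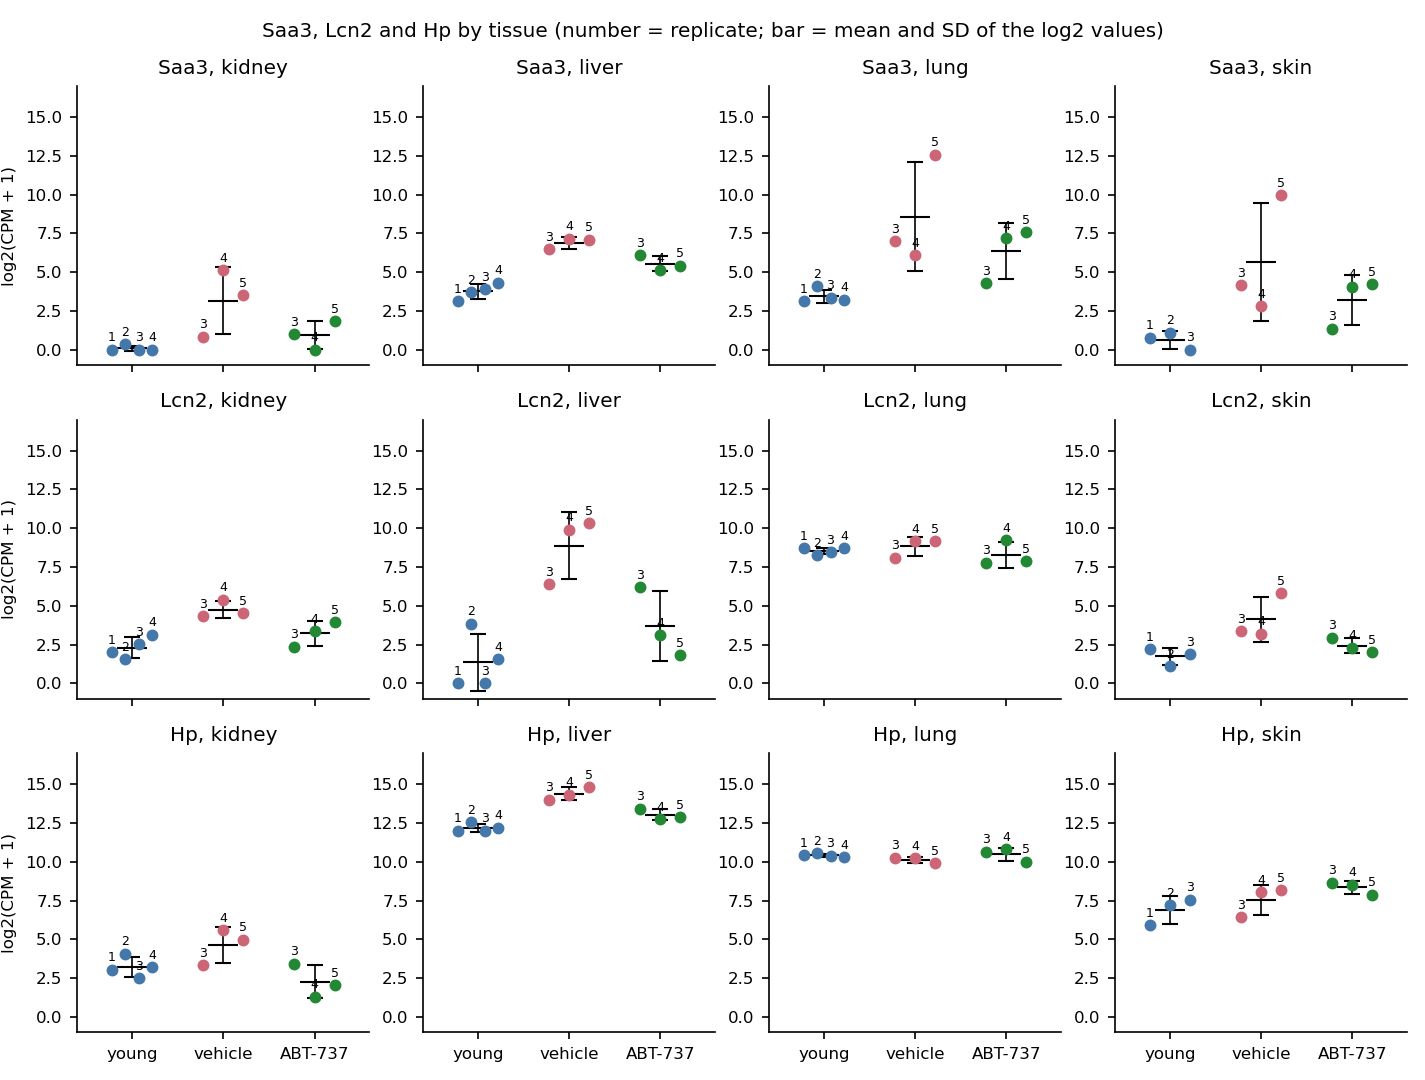
Saa3, Lcn2 and Hp in every library of kidney, liver, lung and skin, as log2(CPM + 1), by group, with replicate numbers and bars for the mean and SD of the log2 values; levels in skin come from another table and are not comparable with the other tissues. Saa3 in vehicle replicate 5 reached 6130 CPM in lung and 1011 CPM in skin, far above the other libraries of those tissues.

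In lung, Saa3 was higher and Hamp lower in vehicle than in young mice, while Lcn2 and Hp were not called, and none of the 4 was called between ABT-737 and vehicle. Those 4 passed the filter, 2 being called in vehicle over young mice against 12.9% of 11949 genes. No lung gene was called between ABT-737 and vehicle by edgeR (0.0%), though 1919 had an unadjusted p under 0.05 and DESeq2 called 301. The absence of calls in edgeR depended on single libraries. Dropping replicate 4 of the ABT-737 lungs gave 676 called genes (5.42%), and dropping replicate 5 of that group gave 122 (1.01%). Dropping any other lung library gave none. None of the 10 acute-phase genes was called in any of these fits. Replicates with the same number deviated together in lung, and with the replicate number as a block edgeR called 874 genes, with none of the 4 among them; DESeq2 called none of the 4 either but gave no adjusted p for Saa3, which had an unadjusted p under 0.05 in edgeR. Saa3, which lung epithelium and macrophages make, was at 129, 67.8 and 6130 CPM in vehicle lungs, 18.7, 146 and 190 CPM in ABT-737 lungs and 7.85, 16.0, 9.23 and 8.32 CPM in young lungs. All 6 old lungs were above all 4 young ones, and vehicle replicate 5 was alone at its level. Saa3 rose by 7.68 ± 1.37 in vehicle over young mice (adjusted p = 0.00414), and by 3.26 without vehicle replicate 5 (adjusted p = 0.0131). The difference of ABT-737 from vehicle was -4.16 ± 1.30 (adjusted p = 0.155), -2.40 with the replicate block (adjusted p = 0.110), -4.19 ± 1.03 among all genes of at least 1 count, where it was called (adjusted p = 0.0352), and 0.28 without vehicle replicate 5 (adjusted p = 0.962).

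Lcn2 was at 273, 581 and 578 CPM in vehicle lungs, 217, 606 and 230.4 CPM in ABT-737 lungs and 422, 305, 345 and 414 CPM in young lungs. It was present in all lungs and the groups overlapped, with a log2 difference of 0.36 ± 0.38 for vehicle over young (adjusted p = 0.560) and -0.45 ± 0.41 for ABT-737 over vehicle (adjusted p = 0.614). Hp was at 1227, 1195 and 962 CPM in vehicle, 1609, 1775 and 1021 CPM in ABT-737 and 1378, 1483, 1336 and 1271 CPM in young lungs. The vehicle lungs lay just below the young ones, by -0.28 ± 0.29 (adjusted p = 0.564), in contrast to the order of the groups for Hp in liver.

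Hamp was at 1.34, 9.01 and 0.374 CPM in vehicle lungs, 16.1, 6.32 and 1.79 CPM in ABT-737 lungs and 74.1, 23.6, 26.6 and 35.3 CPM in young lungs. Every old lung was below every young one. Hamp fell by 3.43 ± 0.79 in vehicle over young mice (adjusted p = 0.0132), a call lost without vehicle replicate 5 (-2.83, adjusted p = 0.0546). Hepatocyte markers also differed between the groups, but did not follow Hamp in every library: their sum was 185, 41.7, 8.68 and 68.1 CPM in young, 16.8, 11.6 and 4.11 CPM in vehicle and 24.5, 34.8 and 3.13 CPM in ABT-737 lungs, with Ahsg or Alb most abundant and 1 to 5 of the 8 at 0. Young replicate 3, at 8.68 CPM, lay below vehicle replicates 3 and 4 in this sum but above every old lung in Hamp. Of the 3 tested, Ahsg (-3.23, adjusted p = 0.0372) and Ttr (-4.16, adjusted p = 0.0452) fell in vehicle over young mice. These 2 were also the negative acute-phase genes called in lung, of 7 tested. The part of hepatocyte RNA in the level of Hamp was not tested. Young replicate 1, with the highest hepatocyte sum, also had the highest Hamp, Saa1 (20.6 CPM), Saa2 (13.7 CPM), Orm1 (14.7 CPM) and Orm2 (40.2 CPM) of the 10 lungs.

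Of the other positive acute-phase genes, 15 were tested in lung, and 4 rose in vehicle over young mice: complement factor B, Cfb (3.35, adjusted p = 0.00259), C4b (1.59, adjusted p = 0.00575), Cd14 (1.44, adjusted p = 0.0131) and Serpina3n (1.01, adjusted p = 0.0336). Of the signalling genes, 21 were tested and 5 rose in vehicle over young mice: Il1b (2.97, adjusted p = 0.00398), Socs3 (2.34, adjusted p = 0.00642), Tnf (3.63, adjusted p = 0.00683), the inhibitor Tnfaip3 (1.59, adjusted p = 0.0144) and Myd88 (0.96, adjusted p = 0.0239). Stat3 (0.42, adjusted p = 0.305), Cebpb (0.50, adjusted p = 0.302) and Cebpd (-0.25, adjusted p = 0.608) were not called, and Il6 had at most 1 count. Il1b, Socs3 and Tnf were each highest in vehicle replicate 5, the lung with the most Saa3, at 162, 254 and 28.8 CPM. Fpr2, a receptor of serum amyloid A on myeloid cells, rose by 2.05 (adjusted p = 0.0113) and Tlr2 by 1.81 (adjusted p = 0.0349), 2 of the 12 receptors and partners tested. None of these lists had a call between ABT-737 and vehicle in edgeR without a block, where 2 other positive acute-phase genes and 6 signalling genes were lower at an unadjusted p under 0.05. At that threshold 1 signalling gene and 1 negative acute-phase gene were higher. Of the receptors and partners, 1 was higher and 1 was lower. With the replicate block, 4 signalling genes (Il1b, Socs3, Tnf and Tnfaip3), Cfb and Fpr2 were lower and Rbp4, a negative acute-phase gene, was higher. Macrophage markers, led by Lyz2, summed to 1268, 949 and 2048 CPM in vehicle, 938, 1428 and 1166 CPM in ABT-737 and 666, 944, 712 and 866 CPM in young lungs, also highest in vehicle replicate 5. The T cell markers Cd3d, Cd3e and Cd8a summed to 171, 165 and 688 CPM in vehicle, 32.2, 56.9 and 129.7 CPM in ABT-737 and 9.77 to 26.5 CPM in young lungs, with the same library highest. All 3 rose in vehicle over young mice; between ABT-737 and vehicle none was called by edgeR without a block, and all 3 were lower with it. Neutrophil markers summed to 171, 231 and 130 CPM in vehicle, 140, 112 and 109 CPM in ABT-737 and 58.6 to 79.0 CPM in young lungs, and 2 of 5 tested, S100a8 and Retnlg, rose in vehicle over young mice. B cell and plasma cell markers summed to 132, 229 and 114 CPM in vehicle, 41.9, 155 and 317 CPM in ABT-737 and 33.1 to 61.8 CPM in young lungs, and 3 of 4 tested (Jchain, Ms4a1 and Cd79a) rose in vehicle over young mice. Vehicle replicate 5 was the lowest of the vehicle lungs in the B cell sum; in the neutrophil sum its place rested on S100a9, the other 11 summing to 106, 143 and 108 CPM in vehicle, 65.0, 51.6 and 72.0 CPM in ABT-737 and 35.3 to 54.4 CPM in young lungs. The 6 lung epithelial markers, led by Scgb1a1 or Sftpc, summed to 26772 CPM in that library, lowest of the 10 lungs, against 33869 to 55650 CPM in the other 9, and none of the 6 was called in either comparison by edgeR or had an unadjusted p under 0.05. The part of these cells in the level of Saa3 was not tested.

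In skin, Saa3 and Lcn2 were higher in vehicle than in young mice, and each was far higher in vehicle replicate 5 than in the other vehicle libraries. Of the 10 genes, 5 were tested, and 2 were called in vehicle over young mice, against 11.2% of 14224 genes. With 1 library left out, that share ranged from 0.26% (young replicate 1) to 16.8% (ABT-737 replicate 3). It was 0.274% without young replicate 2 and 2.62% without vehicle replicate 5. Young skin held at most 2 counts of Saa3 and 6 of Lcn2. Both genes passed the filter only because of the vehicle libraries, where they were highest: no young library and too few ABT-737 libraries reached it. Their calls in vehicle over young mice are therefore given as a description, and nothing is read from their count. Between ABT-737 and vehicle no gene was called (0.0%) by edgeR, with 1134 at an unadjusted p under 0.05 and 60 called by DESeq2. Saa3 was at 17.1, 6.05 and 1011 CPM in vehicle skin, 1.56, 15.7 and 18.0 CPM in ABT-737 skin and 0.724, 1.15 and 0 CPM in young skin. Every old library lay above every young one, and vehicle replicate 5 stood alone as it did in lung. Saa3 rose by 9.12 ± 2.38 in vehicle over young mice (adjusted p = 0.0398) and by 4.22 without vehicle replicate 5, no longer called (adjusted p = 0.103). Against ABT-737 the difference was -4.89 ± 1.71 (adjusted p = 0.527), and 0.01 without that library.

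Lcn2 was at 9.23, 8.19 and 55.2 CPM in vehicle, 6.75, 3.92 and 3.05 CPM in ABT-737 and 3.62, 1.15 and 2.73 CPM in young skin. The vehicle libraries were above all others. Lcn2 rose by 3.30 ± 0.86 (adjusted p = 0.0400), and by 1.80 without vehicle replicate 5 (adjusted p = 0.0962). Against ABT-737 the difference was -2.40 ± 0.74 with no overlap and was not called (adjusted p = 0.476). Both calls were also lost without any 1 of the 3 young libraries (adjusted p = 0.0994 to 0.136) and without ABT-737 replicate 4 or 5 (adjusted p = 0.0507 to 0.0569), although the fold changes stayed between 2.95 and 10.01. The share of all skin genes called was lower in these fits too, at 0.26% to 4.57% without a young library. Hp was at 83.9, 261 and 285 CPM in vehicle, 401, 367 and 236 CPM in ABT-737 and 58.6, 148 and 188 CPM in young skin, and was not called (0.67 ± 0.51, adjusted p = 0.387, for vehicle over young). Orm1 and Orm2 overlapped in all groups, from 11.4 to 53.4 CPM and from 12.1 to 94.0 CPM. Saa1 and Saa2 had no count in young skin and 10.2 and 6.90 CPM in vehicle replicate 5; against a floor of 3 counts over the young group, vehicle skin was at least 8.14-fold higher for Saa1 and at least 6.11-fold higher for Saa2. These bounds rest on vehicle replicate 5, which held 37 of the 40 vehicle counts of Saa1 and 25 of the 30 of Saa2; vehicle replicate 4 had no count of Saa1, as in young skin. In the skin annotation the spans of Hamp, Hp and Orm2 overlap those of Gm44662, Txnl4b and Akna on the other strand, and whether counting used strand was not stated.

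Of the other positive acute-phase genes, 13 were tested in skin and 8 rose in vehicle over young mice, led by Cp (3.29, adjusted p = 0.0188), C4b (2.79, adjusted p = 0.0209), Cfb (2.89, adjusted p = 0.0215), Cd14 (3.52, adjusted p = 0.0226) and Serpina3n (3.29, adjusted p = 0.0261). The growth factor Igf1, counted with the negative genes, rose by 1.56 (adjusted p = 0.0418). None of the 20 signalling genes tested was called by edgeR (4 were higher at an unadjusted p under 0.05), with Il1b at 1.04 (adjusted p = 0.359), Socs3 at 0.29 (adjusted p = 0.762), Stat3 at 0.18 (adjusted p = 0.520), Cebpb at 0.29 (adjusted p = 0.643) and Cebpd at 0.55 (adjusted p = 0.413). Il6 had no count in any skin library, and Tnf, which was not tested, had 42 in vehicle replicate 5 and at most 10 elsewhere. Il1b was at 9.67, 13.9 and 88.0 CPM in vehicle skin, again highest in replicate 5. Tlr2 (2.58, adjusted p = 0.0421) and Scarb1, which takes up high-density lipoprotein (1.05, adjusted p = 0.0494), rose among the 11 receptors and partners tested. No gene of the 4 lists was called between ABT-737 and vehicle by edgeR. At an unadjusted p under 0.05, 4 of the other positive acute-phase genes and 3 of the signalling genes were lower. Of the receptors and partners, 3 were higher and 1 was lower at that threshold. The neutrophil gene S100a9 had 983 counts in vehicle replicate 5 and at most 17 in any other skin library. The 12 neutrophil markers summed to 473, 552 and 691 CPM in vehicle, 607, 413 and 389 CPM in ABT-737 and 729, 790 and 720 CPM in young skin, nearly all of it from Elane outside vehicle replicate 5. The other 11 summed to 3.08, 12.8 and 350 CPM in vehicle, 3.37, 7.44 and 5.18 CPM in ABT-737 and 0.724, 1.15 and 1.36 CPM in young skin, highest in the library with the most Saa3. The 1 neutrophil marker tested had a log2 fold change of -0.73 for vehicle over young, not called but at an unadjusted p under 0.05. T cell markers summed to 74.7, 77.6 and 126 CPM in vehicle, 63.1, 51.3 and 64.3 CPM in ABT-737 and 21.0, 31.6 and 43.2 CPM in young skin, led by Trbc2, and 2 of 2 tested rose in vehicle over young mice. Macrophage markers summed to 737, 1477 and 1781 CPM in vehicle, 537, 263 and 600 CPM in ABT-737 and 106, 163 and 337 CPM in young skin, and 6 of 6 tested rose in vehicle over young mice. The 4 keratinocyte markers Krt5, Krt10, Krt14 and Lor also stood apart in vehicle replicate 5: they summed to 15839, 18835 and 31670 CPM in vehicle, 16951, 9762 and 14458 CPM in ABT-737 and 12876, 17184 and 15950 CPM in young skin. Of these 4, none was called by edgeR, and 2 were higher in vehicle over young mice at an unadjusted p under 0.05. The part of infiltrating cells or of keratinocytes in the level of Saa3 or Lcn2 was not tested.

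**Figure D4:**
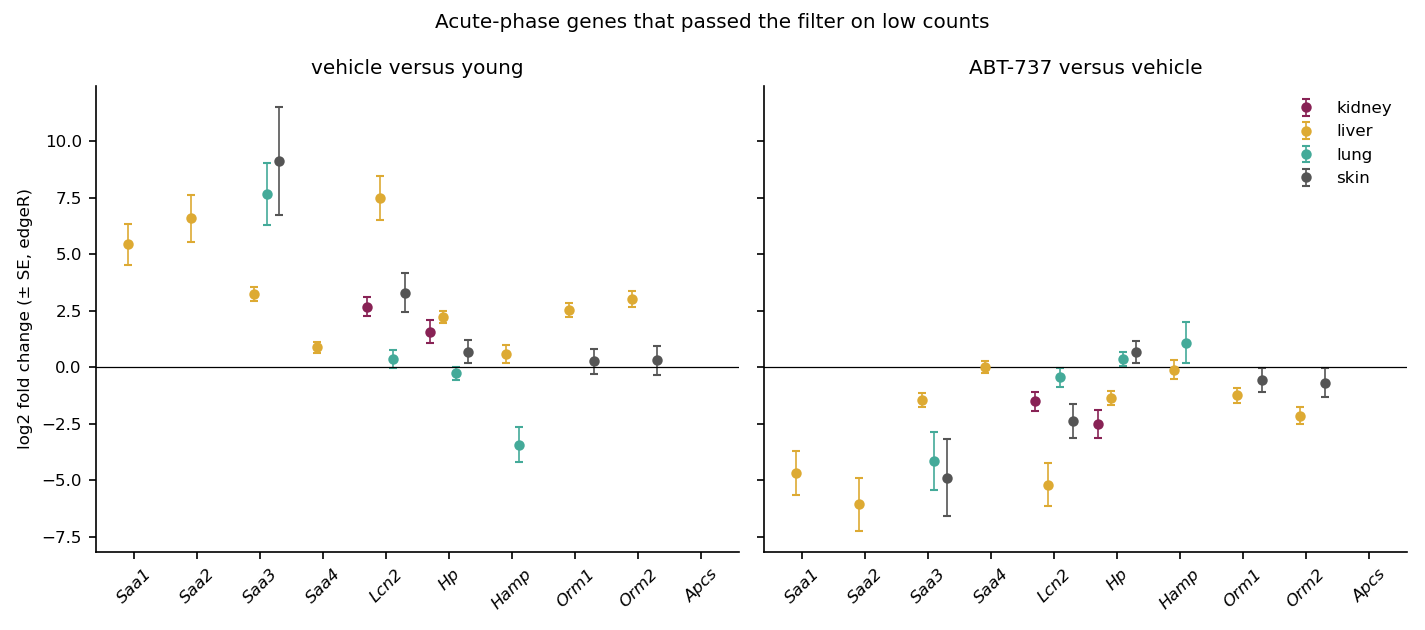
Log2 fold change ± SE of each acute-phase gene that passed the filter, for vehicle over young and for ABT-737 over vehicle, in the 4 tissues; Apcs passed in none. In liver 8 of the 9 plotted genes lie between 0.88 and 7.49 for vehicle over young with Hamp at 0.58; liver values are a description of the contrast that the genes were chosen on.

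The vehicle library with the highest levels differed between tissues. Vehicle replicate 5 was highest for Saa1, Saa2, Lcn2, Hp, Orm1, Orm2 and Saa4 in liver, and for Saa1, Saa2 and Saa3 in both lung and skin. Vehicle replicate 4 was highest for Saa1, Saa2, Saa3, Lcn2 and Hp in kidney. Vehicle replicate 3 was lowest for Saa3, Lcn2 and Hp in both liver and kidney. The labels do not say whether a replicate number names the same mouse in each tissue, so these orders are given side by side only. The 10 genes took 0.791% of counts in the lung of vehicle replicate 5 and 0.162% to 0.234% in the other 9 lungs.

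Across the untreated young mice, the 3 tissues counted in 1 table differed in which of the 10 genes they held. Levels here come from a fit over the young libraries alone, in which 51.5% of 11867 genes were called between liver and kidney, 69.4% between liver and lung and 74.7% between lung and kidney. The median of all genes lay at -0.34 between liver and kidney and -0.33 between liver and lung, and fold changes are to be read relative to it. All but Apcs were tested. Liver was above lung for 8 genes and above kidney for 8. Hp, for example, was at 6509 CPM in liver, 1094 CPM in lung and 8.10 CPM in kidney on average, with log2 differences of 2.57 ± 0.22 between liver and lung (adjusted p = 1.98e-11) and 7.03 ± 0.29 between lung and kidney (adjusted p = 7.43e-19). The order of the 3 tissues was without overlap. Saa1, Saa2, Saa4, Orm1 and Orm2 passed the filter only through liver, where they were high. These genes, Saa3 and Hamp had at most 1 count in any young kidney. The part of these genes in the counts of 8 is given as a description and not as a test.

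Lcn2 had another order. It was at 297 CPM on average in young lung, 5.37 CPM in liver and 3.88 CPM in kidney, lower in liver than in lung by 5.65 ± 0.39 (adjusted p = 1.02e-13) and not called between liver and kidney (0.66 ± 0.70, adjusted p = 0.458). Saa3 was at 18.2 CPM in liver, 8.28 CPM in lung and 0.0622 CPM in kidney, and its liver and lung libraries overlapped although the difference was called (1.17 ± 0.36, adjusted p = 0.00533). Hamp was at 1285 CPM in liver and 31.9 CPM in lung and had no count in young kidney, which put liver at least 5532-fold and lung at least 144-fold above a kidney floor of 3 counts. Saa1, Saa2, Saa4, Orm1 and Orm2 stood on average at 324, 150, 483, 202 and 373 CPM in liver and at 8.51 CPM or less in lung and kidney. Young lung replicate 1 lay above those averages, at 16.4 CPM for Saa1, 10.96 CPM for Saa2, 11.7 CPM for Orm1 and 32.1 CPM for Orm2 on this scale, while the other 3 young lungs were at 1.30 CPM or less for each of the 4. The 9 calls between lung and kidney fell to 5 without young lung replicate 1, the library with the highest hepatocyte marker sum. Saa1, Saa2, Saa4, Orm1 and Orm2 entered this comparison only because liver carried them past the filter. Saa4 was called on 5 lung counts against 1 kidney count. Saa1, Saa2, Saa4 and Orm1 overlapped between lung and kidney. Nothing is read from the calls of these genes.

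**Figure D5:**
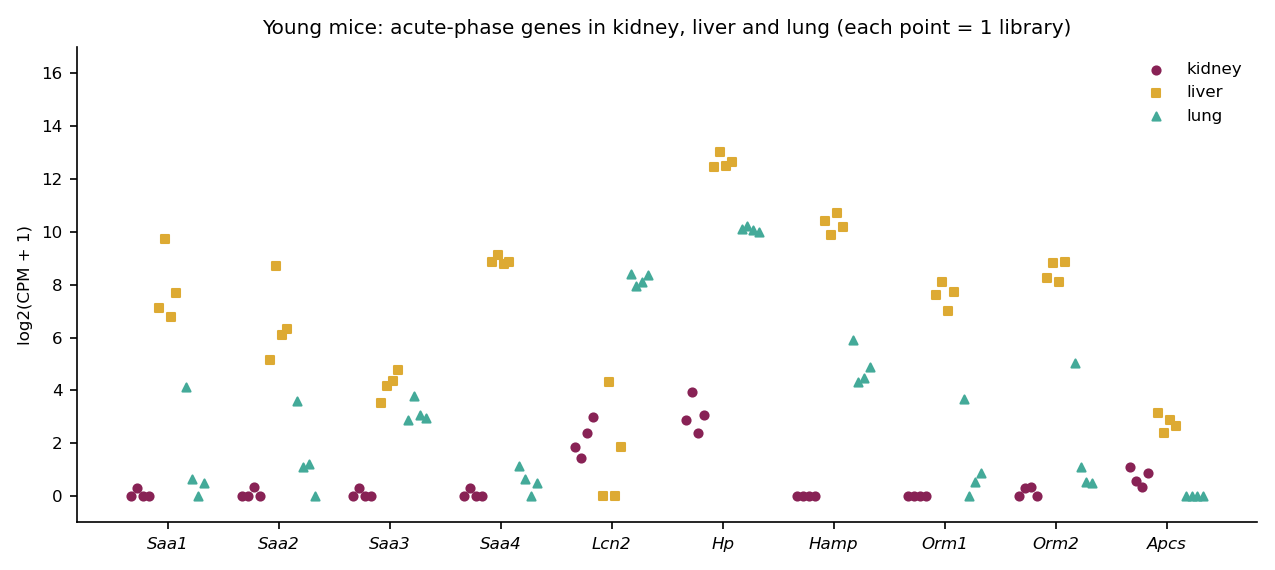
Level of each acute-phase gene in young kidney, liver and lung, as log2(CPM + 1), from the fit over young libraries; each point is 1 library (circle kidney, square liver, triangle lung). Liver is highest for most genes, and lung is highest for Lcn2, at 297 CPM on average.

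The genes whose levels followed those of Saa2 most closely over the 10 livers, by Pearson's r of log2(CPM + 1), were Hpx, the heme-binding hemopexin (0.970), Serping1, the inhibitor of complement C1 (0.957), Tapbp (0.953), Kng1 (0.945) and Ly6e (0.941). For Saa3 over the 10 lungs they were Lilr4b (0.974), Gimap6 (0.971), Adgre1, the F4/80 antigen of macrophages (0.968), Arsb (0.967) and Psap (0.965). For Saa3 over the 9 skin libraries they were 2610528A11Rik (0.992), Twf1 (0.983), Ebp (0.975), Gm15487 (0.975) and Prss27 (0.973). All of these points share libraries and group differences, and no p is given. In kidney Saa3 did not pass the filter.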

How the data were processed

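RNA from kidney, liver, lung and skin was sequenced as 3′-end bulk libraries (MARS-seq). The authors deposited raw counts per gene, 1 table for kidney, liver and lung and 1 for skin, with another annotation, whose levels were not compared with the other tissues. The submitters' processing notes name bcl2fastq, HISAT 0.1.5, HOMER and mm10. Whether barcodes were collapsed, which would affect the spread of high counts, and whether counting used strand are not given in the sources used here.

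Counts were analysed as deposited with edgeR 4.0.16 (R 4.3.3, limma 3.58.1): genes kept by filterByExpr (minimum count 10), TMM normalisation, 1 quasi-likelihood fit of the 3 groups per tissue and 1 of the young kidney, liver and lung libraries, Benjamini-Hochberg adjustment over all genes tested. DESeq2 1.42.0, its size factors, a filter of at least 1 count, only the compared groups, paralogs summed, the replicate number as a block and each library left out were alternatives. The edgeR code was tested on simulated data. Intervals of shares are exact Clopper-Pearson at 95%, and a count of 0 allows up to 3 counts.

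The 10 genes and all lists were chosen with earlier results of these data known. Of each acute-phase, signalling and receptor list, up to 5 called genes with the smallest adjusted p are named, and Il6, Il1b, Tnf, Socs3, Stat3, Cebpb and Cebpd in each tissue; the same rule was set for marker lists, which are given mainly as sums and counts, with fewer names. ABT-737 replicates 4 and 5, whose treatment labels read ABT-738 and ABT-739, were taken as ABT-737 by their titles. The labels call replicates biological. Deviations of vehicle and ABT-737 libraries of the same number correlated at 0.18, 0.30 and 0.43 in lung, each over 0.1, so there the numbers were treated as possible pairs. In kidney, liver and skin they were not. All results, those in lung included, come from fits without pairs unless the replicate block is named. Counting error at these depths is small for genes of over 100 counts and large for Apcs, Saa3 in kidney and Saa1 and Saa2 outside liver.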

Additional observations from a re-analysis of the deposited data

Results flagged for a closer look

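Within groups of 4 young libraries, 19 gene and tissue sets were examined for a library far from the other 3, and chance marks about 1 in 20. In young liver, replicate 2 stood apart from the other 3 for Saa1 (602 CPM), Saa2 (298 CPM) and Lcn2 (13.4 CPM). In young lung, replicate 1 stood apart for Saa1 (20.6 CPM), Saa2 (13.7 CPM), Orm1 (14.7 CPM) and Orm2 (40.2 CPM), and replicate 2 for Saa3 (16.0 CPM).

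Every vehicle library lay above every young library for Hp in liver and below it in lung. The log2 fold change of vehicle over young was 2.22 ± 0.28 in liver, where it was given no test, and -0.28 ± 0.29 in lung, where edgeR did not call it (adjusted p = 0.564). The difference between the tissues was not tested.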

How the results depend on the processing

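The limits of these results are 3 mice per old group, 1 vehicle library each that holds most of the Saa3 counts in lung and in skin, and shallow liver libraries. Of the 10 genes, DESeq2 called 1 in kidney between ABT-737 and vehicle (none in edgeR), against 2.06% of 11123 genes, and 1 between vehicle and young (2 in edgeR), against 13.4%. With all genes of at least 1 count, edgeR called 3 of the 10 in kidney (2.15% of 17097 genes) and 1, Saa3, in lung (2.04% of 17620 genes) between ABT-737 and vehicle, and 4 in skin (7.95% of 29019 genes) between vehicle and young. The other positive acute-phase genes called in liver between ABT-737 and vehicle numbered 10 with that filter and 0 with only the compared groups fitted, which tested fewer genes. The calls between young lung and kidney numbered 4 with only the compared groups. That fit left out the liver libraries, through which Saa1, Saa2, Saa4, Orm1 and Orm2 had passed the filter. The cause of these changes was otherwise not tested.

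Leaving out 1 library at a time gave 0 to 3 calls of the 10 genes in kidney between ABT-737 and vehicle and 1 to 3 between vehicle and young, 1 to 2 in lung and 0 to 2 in skin between vehicle and young, 0 to 11 other positive acute-phase genes in liver between ABT-737 and vehicle, and 5 to 9 calls between young lung and kidney. Log2 fold changes of ABT-737 over vehicle ranged from -4.73 to 0.28 for Saa3 in lung, from -5.48 to 0.011 for Saa3 in skin, both positive without vehicle replicate 5, and from -0.093 to 3.29 for Hamp in lung, negative without ABT-737 replicate 3. In skin, vehicle over young ranged from -0.33 to 0.56 for Orm1 and from -0.35 to 0.75 for Orm2, negative for both without vehicle replicate 4 and without young replicate 1 (-0.094 and -0.084). Between vehicle and young mice, the share of all genes called ranged from 7.4% to 16.4% in kidney and 15.6% to 24.7% in liver. In lung it ranged from 4.08% to 19.6%. DESeq2 gave no adjusted p for Saa3 in lung or skin.

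Under the replicate block, Saa3 in lung was at -2.40 for ABT-737 over vehicle, and no call changed for those of the 10 genes tested in kidney, lung and skin. In kidney, liver and skin, where the samples share only a number (same-number correlations of -0.58 to 0.27), the block moved the genes called in kidney from 150 to 142, those in liver from 215 to 273, and left 0 in skin. In none of these tissues did every library correlate best with its own number, and in lung they did not either: vehicle replicate 4 and ABT-737 replicate 3 correlated at 0.302, above 0.296 and 0.176 with their own numbers, so the pairing in lung rests only on every same-number correlation being over 0.1.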

Other observations

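The lung of ABT-737 replicate 4 held 4795 CPM of the 6 adipocyte markers, with Cfd most abundant, against at most 170 CPM in the other 9 lungs. Orm1 was at 13.7 CPM and Orm2 at 34.8 CPM in that library, each the highest of the 6 old lungs. Hp (1775 CPM) and Lcn2 (606 CPM) were also highest there, above the other 9 lungs. The part of adipocytes in these levels was not tested. None of the 4 adipocyte markers tested in lung was called between ABT-737 and vehicle by edgeR, all 4 being higher at an unadjusted p under 0.05, and 2 of them, Cidec and Retn, were called with the replicate number as a block.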
